A study of Mus musculus with 6 samples.

Results

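Chemokines, cytokines and their receptors were examined in primary hepatocytes of alcohol-fed mice. The genes were chosen by name alone: every gene whose symbol begins with Ccl, Cxcl, Ccr, Cxcr, Ackr, Il, Tnfsf or Tnfrsf and a number, or with Cx3c, and Tnf itself. This gave 130 of the 25718 genes in the deposited table. The RNA came from 3 WT libraries and 3 S100a16KO+/- libraries. All 6 were from alcohol-fed male mice aged 8 to 10 weeks at the start, so that no group without alcohol entered the comparison. According to the methods of the study, the animals received a control diet for 5 days, then a diet with 5% ethanol for 10 days and 1 gavage of ethanol at 5 g/kg, and livers were collected 9 h later. The S100a16KO+/- animals carried 1 deleted allele of S100a16, made by removing the floxed exons 2 and 3 with Cre under the EIIa promoter, which acts in the early embryo, so that the deletion is not limited to hepatocytes, on a C57BL/6 background, and the sample labels call these samples S100A16 knockdown. S100a16 codes for a calcium-binding protein. Its estimated counts did not overlap between genotypes: WT hepatocytes had 1001, 1056 and 1107, and S100a16KO+/- hepatocytes 433, 390 and 366. Whether each library came from a single animal is not given in the sources used here, so p-values measure the spread between these libraries.

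Chemokines are small secreted proteins that draw leukocytes along a gradient, and they act through G protein-coupled receptors on the migrating cell, whereas atypical receptors bind them without that signal and clear them. Most interleukins bind a receptor made of several chains that passes the signal on through JAK kinases and STAT factors, and those of the IL-1 family and the TNF superfamily act through adaptors that lead to NF-kB. In the liver these ligands come largely from Kupffer cells, endothelial and stellate cells, while hepatocytes themselves carry the receptors for IL-6, IL-1 and TNF and answer them with the acute-phase response.

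Each value below is an estimated count per gene and library unless FPKM, which is scaled for transcript length and library size, is named. Library totals ranged from 67658095 to 71807834 counts. About 4 counts stood for 1 sequenced fragment, so a count of 0 allowed up to 3 fragments, and the detection limit was set at 12 counts. This limit covers counting error only. The 130 genes together took between 0.0918% and 0.103% of the counts of a library. WT replicate 1 and S100a16KO+/- replicate 2 stood somewhat apart in that their 20 most abundant genes took 39.3% and 38.6% of the counts, against 35.1% to 36.5% in the other 4 libraries. Without both of them, 3 of the 29 tested genes of the family that were named by rule lost their call. In the same fit 2 gained a call and 1 changed sign, and not every such change is named beside its result. All 130 identifiers were found in GENCODE M21 on GRCm38, 108 of them with the same start and end, and positions are those of the table.

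Hepatocytes were the main source of the RNA by their markers, and other liver cells were also represented. The summed FPKM of 10 hepatocyte markers was 48202 to 49359 in WT and 49028 to 49831 in S100a16KO+/- hepatocytes, with 3 of them called higher and 2 lower. Alb held most of these sums, with means of 33701 FPKM in WT and 32703 FPKM in S100a16KO+/- hepatocytes. Pck1, 1 of the 3 higher genes, had means of 570 and 1473 FPKM. The summed FPKM of 10 sinusoidal endothelium markers was 53.4 to 58.2 in WT and 80.6 to 82.7 in S100a16KO+/- libraries. Of these, 9 rose and Lyve1 fell, and the defining genes Stab2 and Clec4g rose by 0.41 ± 0.06 and 0.69 ± 0.06 on the log2 scale (± SE). Stellate cell markers summed to 6.23 to 6.54 FPKM in WT and 11.1 to 11.5 FPKM in S100a16KO+/- libraries, with 4 of 9 markers higher, among them Lrat, and Des at 0.58 ± 0.29 without passing the test. Dcn, also called higher, held the largest part of these sums, with means of 3.71 FPKM in WT and 7.23 FPKM in S100a16KO+/- libraries. The 12 markers of Kupffer cells and macrophages summed to 83.6 to 97.8 FPKM and 101.2 to 112.4 FPKM. Marco, C1qb, Lyz2 and Cd68 rose among them, while Clec4f and Vsig4, which define Kupffer cells, had log2 fold changes of 0.04 ± 0.08 and 0.0032 ± 0.12 (adjusted p = 0.795 and 0.989). Dendritic cell markers summed to 0.442 to 0.831 FPKM in WT and 1.11 to 1.33 FPKM in S100a16KO+/- libraries, with Itgax and Clec9a higher among the 4 of 6 that could be tested. Neutrophil markers summed to 3.24 to 5.60 FPKM and 5.33 to 6.31 FPKM, and of the 4 tested 0 passed with edgeR or DESeq2 and 1, Csf3r, had an unadjusted p under 0.05. Lymphocyte and cholangiocyte marker sums overlapped between the genotypes, each with 1 gene called lower. No marker in the table was at 0 in all 6 libraries, although Ly6g, Camp, Ngp and Ltf of the neutrophil list never passed the detection limit. In bulk RNA, a change in the number of cells of a type and a change in RNA per cell cannot be told apart. The part of these cells in the changes reported below was not tested.

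**Figure D1:**
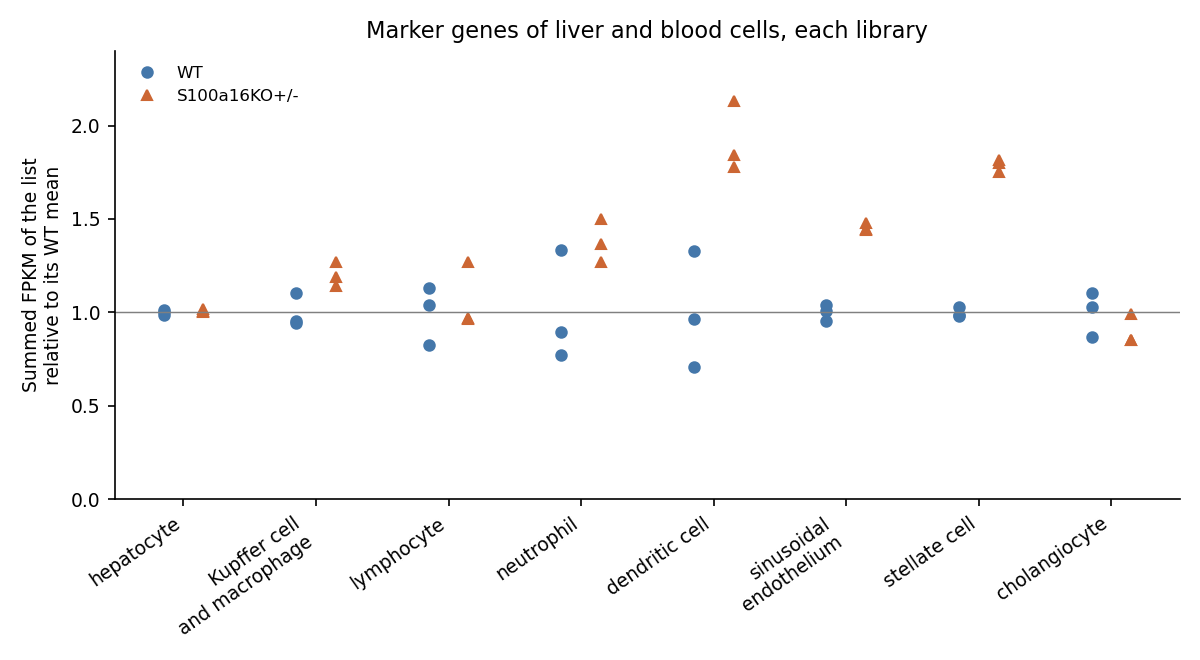
Summed FPKM of each marker list in each library, divided by the mean of the 3 WT libraries (vertical axis, starting at 0); circles are WT and triangles S100a16KO+/- libraries. The S100a16KO+/- libraries lie at 1.44 to 1.48 for sinusoidal endothelium and 1.75 to 1.81 for stellate cells. The most abundant genes of a list weigh most in its sum.

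Detection is given here by role, and roles were not tested against each other. Of the 130 genes, 69 were above 12 counts in all 6 libraries (53.1%, against 52.8% of all genes in the table), 38 in some libraries and 23 in none (17.7%, against 32.4% of all genes). The number above the limit was 85, 85 and 86 for WT replicates 1 to 3 and 90, 88 and 91 for S100a16KO+/- replicates 1 to 3. Of 35 interleukin receptor chains, 22 were above the limit in every library, whereas 6 of 16 interleukins were. The CC chemokines had 8 of 16 and the CXC and CX3C chemokines 8 of 10, chemokine receptors 7 of 15 and atypical receptors 2 of 4, TNF superfamily ligands 4 of 9 and TNF receptors 10 of 19. Both secreted inhibitors, the IL-1 receptor antagonist Il1rn and the IL-18 binding protein Il18bp, were above it throughout, whereas Il1bos, Tnfsf13os, Ccl19-ps3 and Il4i1, other transcripts that the name rule takes in, were not.

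**Figure D2:**
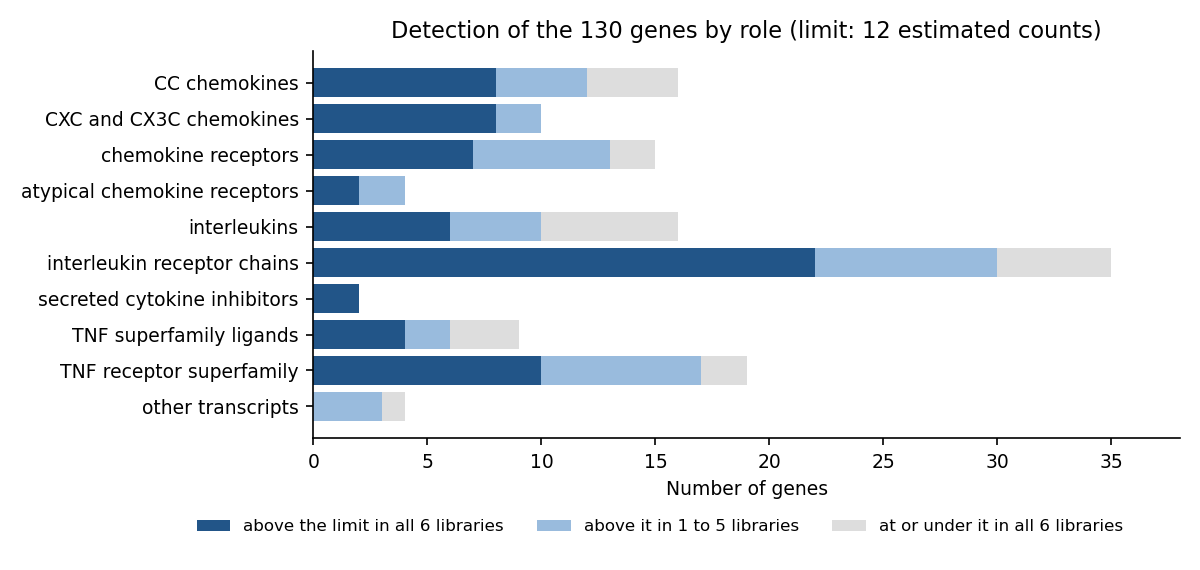
Number of genes (horizontal axis) of each role that were above the detection limit of 12 estimated counts in all 6 libraries, in 1 to 5 of them, or in none. Interleukin receptor chains had 22 of 35 genes above the limit in every library and interleukins 6 of 16.

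The genes that never passed the limit were Ccl17, Ccl19-ps3, Ccl21a, Ccl21b, Ccl21d, Ccr3, Cxcr1, Il10, Il17c, Il17d, Il17re, Il1f9, Il1r2, Il1rl1, Il27, Il5ra, Il7, Il9r, Tnfrsf8, Tnfrsf9, Tnfsf11, Tnfsf15 and Tnfsf8. Among them are Il10, which codes for an anti-inflammatory cytokine, Il1rl1, the receptor of IL-33, and Il1r2, the decoy receptor of IL-1. Ccl21a, Ccl21b and Ccl21d are near-identical copies, so that their reads may be split or lost in counting. In S100a16KO+/- libraries alone, Ccl7, Il4, Il4i1, Il6 and Tnf passed the limit in 1 library and Tnfrsf18 in 2. In WT libraries alone, Ccl22, Ccl28, Il12rb2, Il1bos and Tnfrsf13c passed it in 1. No gene was at or under the limit in all 3 libraries of a genotype and above it in all 3 of the other.

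By FPKM, most of these genes were low. The median of their mean FPKM over the 6 libraries was 0.155, and 28 reached 1 FPKM and 5 reached 10 FPKM. The 10 highest held 64.2% of the summed FPKM of all 130. Chief among them were Ccl9, a CC chemokine, at 22.2 ± 1.5 FPKM in WT and 20.2 ± 1.8 FPKM in S100a16KO+/- hepatocytes (SD, n = 3), and Cxcl12, which holds CXCR4-bearing cells in their niche, at 22.1 ± 1.2 and 18.5 ± 0.87 FPKM. The TNF receptor Tnfrsf1a had 19.4 ± 0.90 and 17.4 ± 0.45 FPKM and the shared IL-1 receptor chain Il1rap 12.9 ± 0.20 and 12.6 ± 0.42 FPKM. The mean over both genotypes was 10.3 FPKM for Il6st, 9.02 FPKM for the IL-17 receptor chain Il17rc, 8.14 FPKM for Il13ra1, 5.93 FPKM for Tnfrsf1b, 5.24 FPKM for Il15ra and 4.21 FPKM for the neutrophil-attracting chemokine Cxcl1. Ccl9 and Cxcl12 differed less from each other than the spread between libraries. Receptor chains took 7 of these 10 places and chemokines 3.

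Genotypes were compared with edgeR's quasi-likelihood test, two-sided, with Benjamini-Hochberg adjustment over the 15957 genes of the table that passed its filter on low counts, and 98 of the 130 genes were among them. Of the 98, 16 had an adjusted p under 0.05 (16.3%), against 22.8% of all tested genes. Of these, 12 were higher in S100a16KO+/- hepatocytes (12.2%, against 11.6% of all tested genes) and 4 lower (4.08%, against 11.2%). The share called higher was near that of all genes and the share called lower was under it, and neither was tested against other genes. Where the mean reached 1 CPM (counts scaled to the library total), 13 of 48 of these genes were called (27.1%), against 29.0% of all tested genes at that level, with 20.8% higher and 6.25% lower, against 14.5% and 14.5%. The study's own criterion asked for a fold change of 2 or more and an unadjusted p under 0.05 with DESeq2. Applied here to the edgeR fit, it was met by 10 of the 98 (10.2%, against 4.52% of all tested genes), 7 of them higher and 3 lower. These need not be the genes that the study called. Of these 10, 8 came from the 50 genes with a mean under 1 CPM, a level at which 8.71% of all tested genes met the criterion, and 5 of the 10 did not pass the adjusted test. The median log2 fold change of the 98 was 0.27, with 71 above 0 and 27 below, beside a median of 0.0062 for all tested genes. These medians were not matched for level. The median of the mean FPKM was 0.391 for the 98 and 1.39 for all tested genes. The genotypes did not overlap in 34 of the 98 genes (34.7%, against 37.9% of all tested genes). Without WT replicate 1 and S100a16KO+/- replicate 2, 16 genes were again called, 10 higher and 6 lower, and 13 were the same genes.

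**Figure D3:**
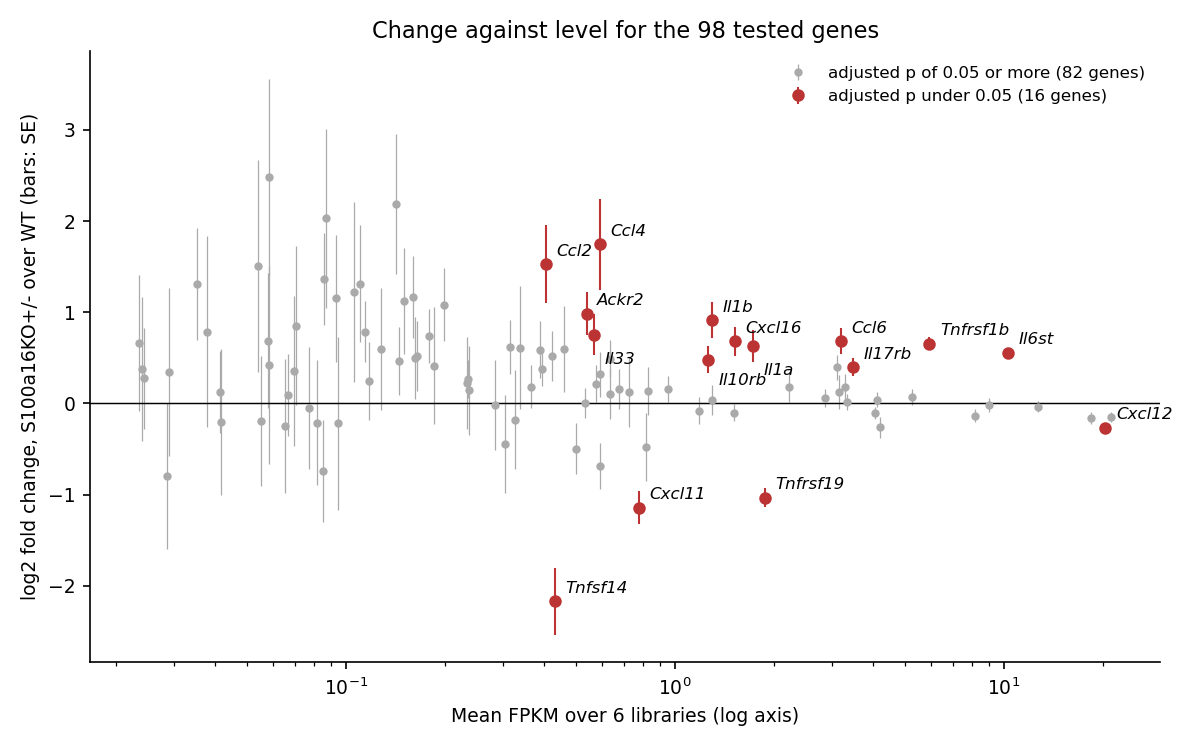
log2 fold change of S100a16KO+/- over WT (vertical axis; bars show the SE of the fit) against the mean FPKM over 6 libraries (horizontal log axis) for the 98 tested genes. The 16 genes with an adjusted p under 0.05 in edgeR's test are named; they lie between -2.17 (Tnfsf14) and 1.75 (Ccl4), and the largest errors belong to genes of low FPKM.

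The smallest adjusted p-values belonged to a cytokine receptor chain and to TNF receptors, Il6st, Tnfrsf19, Tnfrsf1b, followed by the chemokine Cxcl11. For the first 3 the 250 bases before a RefSeq start of transcription (GRCm38.p6) are shown, since these genes gave the firmest changes. The promoter is where STAT factors, NF-kB and interferon-regulated factors would be looked for. Capitals mark matches to the STAT motif TTCNNNGAA and to the interferon-stimulated response element on either strand, and NF-kB sites were searched by the usual consensus. The Il6st stretch is chr13:112463820-112464069 on the plus strand, the Tnfrsf19 stretch chr14:61046856-61047105 on the minus strand with a start 365 bases before the 5′ end of the gene in the table, and the Tnfrsf1b stretch chr4:145246871-145247120 on the minus strand.
Il6st: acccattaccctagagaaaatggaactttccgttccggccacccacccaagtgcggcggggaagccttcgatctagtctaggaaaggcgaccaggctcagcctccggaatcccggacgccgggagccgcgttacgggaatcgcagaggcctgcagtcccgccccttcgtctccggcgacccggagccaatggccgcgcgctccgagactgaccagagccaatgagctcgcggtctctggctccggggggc
Tnfrsf19: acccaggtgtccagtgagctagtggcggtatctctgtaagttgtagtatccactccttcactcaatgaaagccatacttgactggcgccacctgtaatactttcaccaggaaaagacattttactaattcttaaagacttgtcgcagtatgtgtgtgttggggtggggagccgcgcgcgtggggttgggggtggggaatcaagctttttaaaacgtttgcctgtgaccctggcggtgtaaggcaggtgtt
Tnfrsf1b: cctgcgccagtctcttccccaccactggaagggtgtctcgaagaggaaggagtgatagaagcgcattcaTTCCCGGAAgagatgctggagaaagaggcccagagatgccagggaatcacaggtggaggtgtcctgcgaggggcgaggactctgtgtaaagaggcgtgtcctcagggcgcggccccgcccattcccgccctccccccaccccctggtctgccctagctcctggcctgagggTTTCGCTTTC
The Tnfrsf1b stretch held a STAT match 181 to 173 bases before the start and an interferon-stimulated response element match in the last 10 bases before it. The other 2 held none of the 3 motifs. A second RefSeq start of Tnfrsf19, 8503 bases inside the gene from its 5′ end, is not shown. The 250 bases before that start held none of the motifs either. Promoters were found for 100 of the 130 genes and for 11 of the 16 called ones. The NF-kB motif occurred in 16 of 120 promoters of these genes (13.3%, against 7.25% of 32851 promoters of all genes), the STAT motif in 14 (11.7%, against 7.02%) and the response element in 6 (5.00%, against 2.98%). Of the 13 promoters of called genes, 1 held each motif. Besides Tnfrsf1b this was Ackr2, named after its values were seen, for NF-kB. A match describes letters and not binding.

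Among interleukin receptor chains, 3 of 28 tested genes rose and none fell (10.7% called, against 22.8% of all tested genes). Il6st (ENSMUSG00000021756, chromosome 13 from 112464070 to 112510086) codes for gp130, the signalling chain shared by receptors of IL-6, IL-11, LIF and oncostatin M. It had 6853, 7428 and 7095 counts in WT libraries and 10365, 9497 and 11340 in S100a16KO+/- libraries. Every S100a16KO+/- library was above every WT library, and the log2 fold change was 0.56 ± 0.05 (SE, adjusted p = 2.85e-06), a 1.47-fold rise. Il17rb, a receptor chain for IL-25 on chromosome 14 from 29996135 to 30008896, had 859, 828 and 891 counts in WT and 1210, 932 and 1239 counts in S100a16KO+/- hepatocytes. It rose by 0.40 ± 0.10 on the log2 scale (adjusted p = 0.00869), although S100a16KO+/- replicate 2 lay close to the WT libraries. The call was lost in all 4 fits of limma on log2 FPKM, where the largest adjusted p was 0.131. Il10rb, a chain shared by receptors of IL-10 and IL-22 on chromosome 16 from 91406164 to 91425834, had 266, 339 and 323 counts in WT and 421, 369 and 498 counts in S100a16KO+/- hepatocytes. Its log2 fold change was 0.48 ± 0.14 (adjusted p = 0.0267). This was the least stable call, lost in 9 of 18 alternatives. Without single libraries its adjusted p was 0.094 and 0.0543 (WT replicates 1 and 3) and 0.0583 and 0.117 (S100a16KO+/- replicates 1 and 3), and it was 0.0683 without WT replicate 1 and S100a16KO+/- replicate 2. Il17rb lies opposite Actr8 and Il10rb overlaps Gm21970 on its own strand, so their reads may be shared.

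The chains that pair with gp130 were examined for comparison, chosen after their values were seen. Il6ra, which binds IL-6, had 2619, 2934 and 2825 counts in WT and 2705, 2467 and 2546 counts in S100a16KO+/- hepatocytes, with a log2 fold change of -0.11 ± 0.06 (adjusted p = 0.272). Il11ra1, which binds IL-11, changed by 0.04 ± 0.08 on this scale (adjusted p = 0.783). Both lay close to their WT level, with genotypes that overlapped. Lifr, the LIF receptor, rose from 5830, 5874 and 5656 counts to 7602, 7032 and 7843 counts (log2 fold change 0.38 ± 0.05, adjusted p = 6.99e-05). Osmr, the oncostatin M receptor, rose from 140, 169 and 120 counts to 302, 286 and 193 counts (0.89 ± 0.22, adjusted p = 0.00938).

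Other interleukin receptor chains among the 10 genes of highest FPKM did not pass the test. Il1rap, Il17rc and Il15ra had log2 fold changes of -0.04 ± 0.06, -0.02 ± 0.08 and 0.07 ± 0.09, with overlapping genotypes and adjusted p-values of 0.726, 0.910 and 0.656. The sign of all 3 changed when 1 library was left out. Il13ra1 (-0.14 ± 0.07, adjusted p = 0.190) went under 0.05 only without WT replicate 1 and S100a16KO+/- replicate 2 (adjusted p = 0.0313). Il1rap lies opposite Gm20319, which fell by 0.73 on the log2 scale. Among low genes that met the fold criterion but not the adjusted test, Il13ra2, the decoy receptor of IL-13 on chromosome X from 147383476 to 147429192, had 0, 14 and 13 counts in WT and 49, 36 and 38 counts in S100a16KO+/- hepatocytes. The genotypes did not overlap, and the log2 fold change was 2.19 ± 0.77 (adjusted p = 0.0554, and 0.029 with DESeq2). Il7r, the IL-7 receptor of lymphocytes, had 19, 21 and 13 counts against 68, 40 and 27 counts (1.36 ± 0.50, adjusted p = 0.0686, and 0.0458 without S100a16KO+/- replicate 3). Its genotypes did not overlap, and 21 and 27 counts were the nearest values.

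Interleukins themselves gave 3 called genes of 8 tested (37.5%, against 22.8% of all tested genes), and each of them rose. Il1b, Il1a and Il33 code for cytokines that alarm neighbouring cells after injury. Il18, a related cytokine and the interleukin of highest FPKM (3.16), had 244, 189 and 292 counts in WT and 259, 267 and 258 counts in S100a16KO+/- hepatocytes, with overlapping genotypes (0.12 ± 0.18, adjusted p = 0.701). Il1b (ENSMUSG00000027398, chromosome 2 from 129364570 to 129371139) had 104, 137 and 158 counts in WT libraries and 229, 224 and 294 counts in S100a16KO+/- libraries. No S100a16KO+/- library was as low as a WT library, and the log2 fold change was 0.91 ± 0.20 (adjusted p = 0.00422), a 1.88-fold rise. Il1a, its neighbour on chromosome 2 from 129299610 to 129309972, had 236, 226 and 158 counts in WT and 306, 279 and 368 counts in S100a16KO+/- hepatocytes (0.63 ± 0.18, adjusted p = 0.0208). The adjusted p was 0.0989 without WT replicate 3 and 0.0948 without S100a16KO+/- replicate 3. Il33, on chromosome 19 from 29925114 to 29960718, codes for a nuclear alarmin kept in endothelial and stellate cells. It had 81, 99 and 104 counts in WT and 164, 164 and 146 counts in S100a16KO+/- hepatocytes (0.75 ± 0.22, adjusted p = 0.0235). The genotypes did not overlap in either gene. For Il33 the adjusted p was 0.083 and 0.0569 without WT replicates 1 and 2, 0.0723 and 0.0804 without S100a16KO+/- replicates 1 and 2, and 0.176 without WT replicate 1 and S100a16KO+/- replicate 2 together. The summed FPKM of the interleukins was 6.27 to 7.36 in WT and 8.44 to 9.66 in S100a16KO+/- libraries. Of the markers, 9 of 10 for endothelium, 4 of 9 for stellate cells and 4 of 12 for macrophages were called higher in the same libraries. The part of these cells in these rises was not tested.

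The receptors and inhibitors of IL-1, also named after their values were seen, did not pass the test. The receptor Il1r1 had 1291, 1319 and 1493 counts in WT and 1499, 1146 and 1624 counts in S100a16KO+/- hepatocytes (0.06 ± 0.10, adjusted p = 0.730). The antagonist Il1rn had 331, 374 and 454 counts against 452, 401 and 426 counts (0.15 ± 0.14, adjusted p = 0.515). In both the genotypes overlapped. The antisense transcript Il1bos, opposite Il1b, had at most 13 counts in a library. Il1a lies opposite Gm14023, which had 29 to 49 counts, and whether reads were shared between them was not tested.

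Il6 and Tnf, which the study followed in whole liver, were at the edge of detection. Il6, the main inducer of the acute phase, had 4, 4 and 0 counts in WT and 29, 4 and 0 counts in S100a16KO+/- hepatocytes. It passed the limit of 12 counts only in S100a16KO+/- replicate 1 and did not enter the test. Tnf, the founding ligand of its superfamily, had 4, 4 and 12 counts in WT and 10, 16 and 0 counts in S100a16KO+/- hepatocytes, above the limit only in S100a16KO+/- replicate 2. Its log2 fold change of 0.42 ± 1.09 (adjusted p = 0.839) turned to -0.42 without that library. In both genes every WT library was at or under the limit. Of the 3 inflammatory cytokines measured in liver, Il1b alone was above the limit in all 6 libraries. The paper reports lower mRNA of these cytokines in S100a16KO+/- livers by RT-qPCR. In these hepatocytes Il1b was higher, the opposite direction, in another material and by another method. The reason was not tested.

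Of 9 tested CC chemokines, 3 rose and none fell (33.3% called, against 22.8% of all tested genes). Ccl6 (ENSMUSG00000018927, chromosome 11 from 83587882 to 83593087), a chemokine made by myeloid cells, had 340, 404 and 284 counts in WT libraries and 524, 553 and 552 counts in S100a16KO+/- libraries. The genotypes did not overlap, and the log2 fold change was 0.68 ± 0.14 (adjusted p = 0.00291). Ccl2, which recruits monocytes through CCR2, lies on chromosome 11 from 82035571 to 82037453 and had 22, 15 and 19 counts against 65, 41 and 56 counts. It was 2.89-fold higher in S100a16KO+/- hepatocytes (log2 fold change 1.53 ± 0.43, adjusted p = 0.0193), with 15 to 22 WT counts standing for only a few fragments above the limit. Without WT replicate 2 and S100a16KO+/- replicates 1 and 3 in turn its adjusted p was 0.0593, 0.0848 and 0.0555. Ccl4, a chemokine for monocytes and lymphocytes on chromosome 11 from 83662584 to 83664683, had 15, 9 and 18 counts against 37, 58 and 45 counts (1.75 ± 0.50, adjusted p = 0.0206). All WT libraries were below all S100a16KO+/- libraries, and WT replicate 2 was under the limit. Its adjusted p was 0.0689 without WT replicate 2, 0.102 and 0.0504 without S100a16KO+/- replicates 2 and 3, 0.124 without WT replicate 1 and S100a16KO+/- replicate 2, and 0.0524 with the replicate number as a block, so that this call rested on single libraries. Ccl6 and Ccl4 belong to a stretch of 138.906 kb on chromosome 11 that also holds Ccl5, Ccl9 and Ccl3. Within it Ccl9, with 5007, 5341 and 5315 counts against 4814, 4196 and 5067, did not pass the test (log2 fold change -0.15 ± 0.06, adjusted p = 0.0793), while Ccl3 had 36 to 48 and 36 to 54 counts (0.13 ± 0.38, adjusted p = 0.863). Of the 5 genes 2 were called and 3 were not, beside 22.8% of all tested genes called.

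CXC chemokines moved both ways. Among 10 tested CXC and CX3C chemokines, Cxcl11 and Cxcl12 fell and Cxcl16 rose (30% called, against 22.8% of all tested genes). Cxcl11 (ENSMUSG00000060183, chromosome 5 from 92359544 to 92365485), an interferon-induced ligand of CXCR3, had 294, 327 and 322 counts in WT and 125, 122 and 178 counts in S100a16KO+/- hepatocytes. It is annotated as a polymorphic pseudogene as well as protein coding, and whether these mice make a working CXCL11 was not tested. The gap between genotypes was wide, and the gene was 2.21-fold lower (log2 fold change -1.14 ± 0.18, adjusted p = 0.000265). Cxcl9 and Cxcl10, the other CXCR3 ligands, lie within 44.139 kb of the same chromosome, and are named after their values were seen. Cxcl9 had 138, 120 and 114 counts against 151, 172 and 195 counts (0.49 ± 0.20, adjusted p = 0.105) and Cxcl10 had 74, 97 and 153 counts against 110, 113 and 122 counts (0.10 ± 0.28, adjusted p = 0.847). Cxcl11 was lower in every S100a16KO+/- library, whereas Cxcl9 was higher in every one of them without passing the test. Cxcl11 lies opposite Art3, which had 25 to 73 counts.

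Cxcl12 (ENSMUSG00000061353, chromosome 6 from 117168535 to 117181367) had 13790, 14543 and 13671 counts in WT and 11792, 10861 and 12009 counts in S100a16KO+/- hepatocytes. This was a small fall with no overlap, of 0.27 ± 0.05 on the log2 scale (log2 fold change -0.27, adjusted p = 0.00101), and it missed the threshold in 1 of 18 alternatives (adjusted p = 0.0767, limma without a filter on low values). Cxcl16, a membrane-bound chemokine and scavenger receptor on chromosome 11 from 70453983 to 70459984, had 310, 267 and 245 counts against 427, 487 and 387 counts (0.68 ± 0.16, adjusted p = 0.0071). Its genotypes did not overlap. Zmynd15, on the opposite strand of the same region, also rose, from 139, 166 and 108 counts to 242, 277 and 265 counts (0.94 ± 0.20, adjusted p = 0.00287), and whether counting kept the strands apart is not given in the sources used here. Cxcl1 had 598, 755 and 642 counts against 534, 552 and 558 counts, lower in every S100a16KO+/- library, with an adjusted p of 0.122 (-0.26 ± 0.11). Summed over the CXC and CX3C chemokines, FPKM was 29.0 to 32.7 in WT and 26.5 to 27.6 in S100a16KO+/- libraries.

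Of 13 tested chemokine receptors 0 passed edgeR's adjusted test and 0 that of DESeq2, and 3, Ccr1, Ccr2 and Cx3cr1, had an unadjusted p under 0.05. Of 4 atypical receptors 1 was called. Ackr2, an atypical receptor that clears inflammatory CC chemokines such as CCL2 and CCL4, lies on chromosome 9 from 121898355 to 121911074. It had 90, 68 and 105 counts in WT and 157, 160 and 201 counts in S100a16KO+/- hepatocytes. The genotypes did not overlap, and the gene was 1.98-fold higher (log2 fold change 0.98 ± 0.23, adjusted p = 0.0072). Ccr1 and Cx3cr1, receptors of monocytes and macrophages, met the fold criterion only. Ccr1 had 20, 19 and 27 counts against 55, 58 and 33 counts (1.16 ± 0.45, adjusted p = 0.0805). Cx3cr1 had 0, 19 and 0 counts against 25, 42 and 38 counts (2.48 ± 1.08, adjusted p = 0.135), and WT replicate 2 alone was above the limit in WT. Without that library its adjusted p was 0.00173, but leaving it out removes every WT count of the gene, so this value is no support for a rise. The span of Cx3cr1 in the table, chromosome 9 from 119901616 to 120068296, also covers Gorasp1, Csrnp1 and Wdr48, of which Csrnp1 rose (0.37 ± 0.10, adjusted p = 0.0161), so reads of these genes may be shared.

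Receptors of called chemokines are given here by their counts, chosen after the values were seen. Ccr2, the receptor of CCL2, had 59, 35 and 39 counts in WT and 80, 67 and 82 counts in S100a16KO+/- hepatocytes (0.79 ± 0.33, adjusted p = 0.109). Its genotypes did not overlap. Cxcr3, Cxcr4 and Cxcr6, the receptors of CXCL11, CXCL12 and CXCL16, had 8 to 27, 20 to 44 and 17 to 94 counts and adjusted p-values of 0.601, 0.877 and 0.864. These ranges overlapped between genotypes, and the summed FPKM of all chemokine receptors was 1.78 to 1.95 in WT and 1.88 to 2.55 in S100a16KO+/- libraries.

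**Figure D4:**
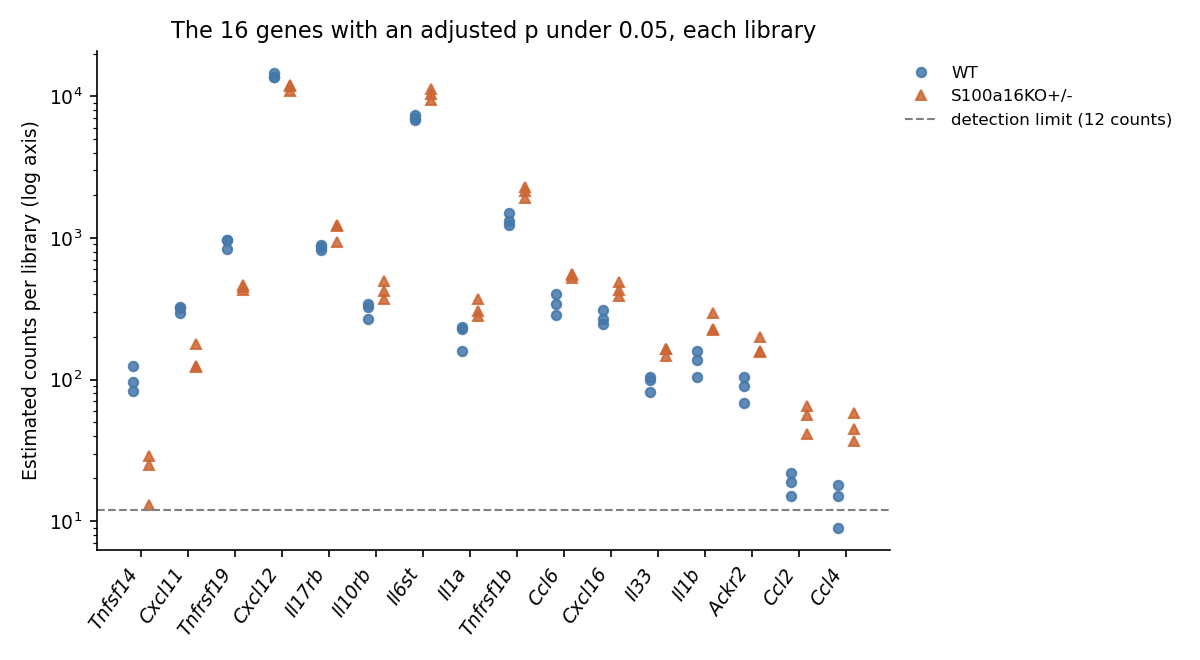
Estimated counts (vertical log axis) of the 16 genes with an adjusted p under 0.05, in order of their log2 fold change; circles are the 3 WT libraries, triangles the 3 S100a16KO+/- libraries, and the dashed line marks the detection limit of 12 counts. Tnfsf14, Cxcl11, Tnfrsf19 and Cxcl12 are lower in S100a16KO+/- libraries, and the other 12 genes are higher.

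In the TNF superfamily, 1 of 6 tested ligands was called (16.7%, against 22.8% of all tested genes), and it fell. Tnfsf14 (ENSMUSG00000005824, chromosome 17 from 57189492 to 57194177) codes for LIGHT, a ligand of HVEM and of the lymphotoxin beta receptor that is known to act on lipid handling in the liver. It had 83, 96 and 124 counts in WT and 29, 13 and 25 counts in S100a16KO+/- hepatocytes. The genotypes were far apart, with S100a16KO+/- replicate 2 just above the detection limit, and the log2 fold change of -2.17 ± 0.37 (adjusted p = 0.000565) was the largest fall among the tested genes of the family. Its receptors did not pass the test and are named after their values were seen. Tnfrsf14 (HVEM) had 129, 129 and 66 counts against 48, 116 and 63 counts (-0.48 ± 0.37, adjusted p = 0.419), and Ltbr a log2 fold change of -0.06 ± 0.08 (adjusted p = 0.672).

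Of 17 tested TNF receptors, 1 rose and 1 fell (11.8% called, against 22.8% of all tested genes). Tnfrsf1b (ENSMUSG00000028599, chromosome 4 from 145213463 to 145246870), the second TNF receptor, which lacks a death domain, had 1244, 1498 and 1322 counts in WT libraries and 2138, 1927 and 2296 counts in S100a16KO+/- libraries. It was 1.58-fold higher without overlap (log2 fold change 0.66 ± 0.08, adjusted p = 2.04e-05). Tnfrsf1a, the death-domain TNF receptor, had 3990, 4033 and 3644 counts against 3443, 3500 and 3387 counts (-0.16 ± 0.07, adjusted p = 0.1), and went under 0.05 without S100a16KO+/- replicate 2 (adjusted p = 0.024). By CPM its genotypes overlapped. Tnfrsf19 (ENSMUSG00000060548, chromosome 14 from 60963875 to 61046490), also called TROY, had 842, 963 and 965 counts in WT and 463, 426 and 451 counts in S100a16KO+/- hepatocytes. It was 2.05-fold lower, with replicates of each genotype close together (log2 fold change -1.04 ± 0.10, adjusted p = 4.69e-06). Tnfrsf11b, which codes for the decoy receptor osteoprotegerin, had 22, 22 and 39 counts against 65, 47 and 64 counts (1.08 ± 0.40, adjusted p = 0.0697, and 0.0427 without WT replicate 3). Its genotypes did not overlap.

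Of the 16 called genes, 9 kept their call in all 18 alternatives: Il6st, Tnfrsf19, Tnfrsf1b, Cxcl11, Tnfsf14, Ccl6, Il1b, Cxcl16 and Ackr2. Of the 16, 15 were above the detection limit in every library, Ccl4 being the exception.

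Genes that carry the signals of these receptors were followed in lists that do not overlap the name rule. Among all tested genes 22.8% were called, 11.6% higher and 11.2% lower. Of 23 genes for JAK kinases, STAT factors and SOCS inhibitors, 5 rose and 4 fell. Socs2, a feedback inhibitor best known for growth hormone signalling, rose from 1304, 1345 and 1462 counts in WT to 4589, 3699 and 4705 counts in S100a16KO+/- hepatocytes (log2 fold change 1.67 ± 0.07, adjusted p = 7.77e-10). Socs3, the feedback inhibitor of gp130, rose from 518, 439 and 411 counts to 1177, 1126 and 1374 counts (1.43 ± 0.11, adjusted p = 3.03e-07). Neither overlapped between genotypes. Other called genes were Stat5b, Stat3 and Jak1 with rises of 0.24, 0.22 and 0.15 on the log2 scale, and Stat5a, Socs4 and Ptpn11 with log2 fold changes of -0.77, -0.34 and -0.22. The list had a median log2 fold change of 0.13.

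Of 33 genes of the NF-kB pathway and TNF receptor adaptors, 4 rose and 4 fell, and the median log2 fold change was -0.0053. Bcl3, a nuclear partner of NF-kB subunits, fell from 996, 1088 and 978 counts to 347, 383 and 312 counts (log2 fold change -1.54 ± 0.12, adjusted p = 4.93e-07). Cflar, an inhibitor of caspase-8 at death receptors, rose from 3034, 3520 and 3320 counts to 5625, 5004 and 6245 counts (0.78 ± 0.06, adjusted p = 6.21e-07). Ikbkg, the regulatory subunit of the IkB kinase, fell from 3552, 4032 and 3742 counts to 2351, 1921 and 2673 counts (-0.70 ± 0.08, adjusted p = 1.02e-05). These 3 showed no overlap. Nfkbib, Cyld and Nfkb2 also rose, and Chuk and Traf6 fell.

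Of 12 adaptors of IL-1 and Toll receptors, 3 rose and none fell: Ticam1 from 489, 533 and 444 to 782, 935 and 703 counts (0.75 ± 0.14, adjusted p = 0.00133), Tirap from 507, 553 and 504 to 695, 818 and 785 counts (0.57 ± 0.11, adjusted p = 0.00213), and Irak3, an inhibitor of this pathway in monocytes, from 26, 24 and 24 to 51, 55 and 62 counts (1.19 ± 0.39, adjusted p = 0.0397). Of 44 further genes outside the name rule, most of them for cytokines and receptors, 39 were in the table and 29 were tested. Ifnar1, a chain of the interferon alpha and beta receptor, rose from 1526, 1484 and 1666 to 2283, 2171 and 2502 counts (0.58 ± 0.07, adjusted p = 3.6e-05), Lifr and Osmr rose as given above, and Cmtm6 fell by 0.25 on the log2 scale (adjusted p = 0.0277). Their median log2 fold change was 0.0049. In these 4 lists together 24 of 97 tested genes were called (24.7%, near the 22.8% of all tested genes), 15 higher and 9 lower, and 11 to 13 in fits of limma on log2 FPKM.

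**Figure D5:**
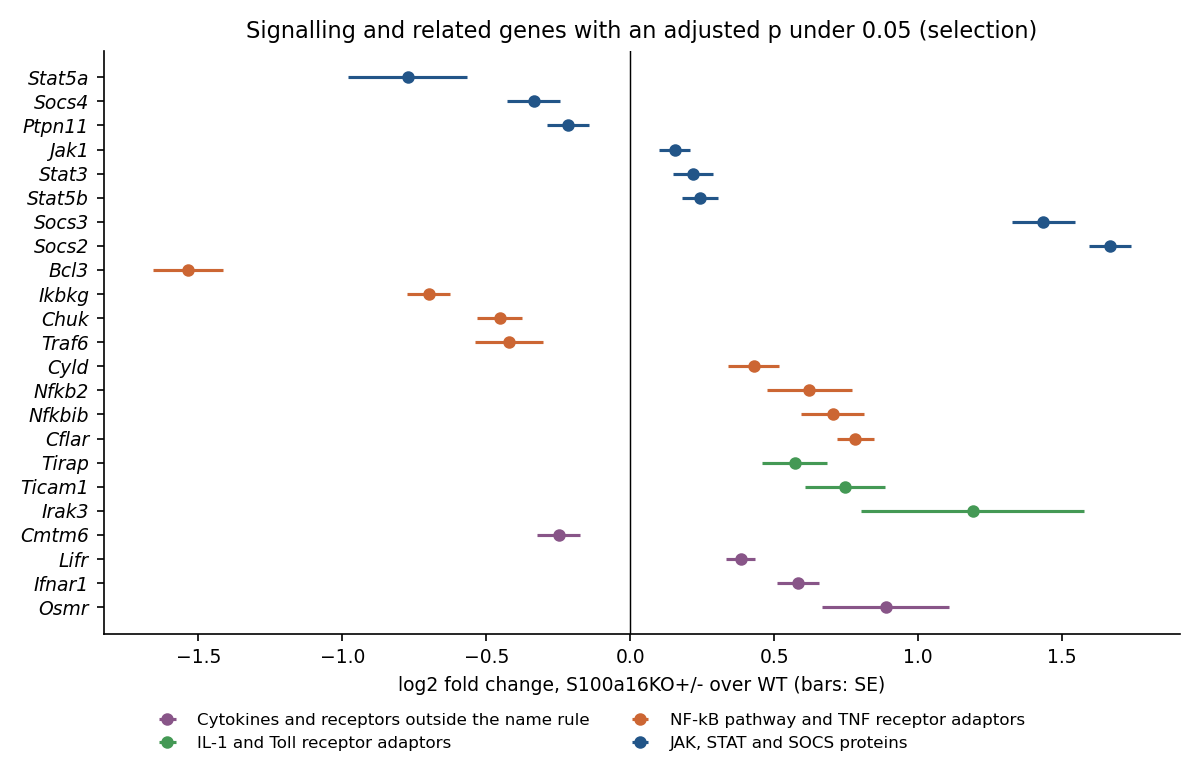
log2 fold change of S100a16KO+/- over WT (horizontal axis; bars show the SE of the fit) for called genes of 4 signalling and cytokine lists, coloured by list. Socs2 (1.67) and Socs3 (1.43) lie farthest to the right and Bcl3 (-1.54) farthest to the left.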

How the data were processed

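Primary hepatocytes isolated by collagenase perfusion and Percoll separation were profiled by poly(A) RNA sequencing from strand-marked libraries with molecular identifiers. The deposited table holds, for each gene, estimated counts that the authors did not scale and FPKM values that the authors scaled for length and depth. The submitters' processing notes name cutadapt 1.9, HISAT2 2.0.4, UMI-tools, StringTie 1.3.4d, DESeq2, edgeR and build mm10. The annotation and the strand setting used in counting are not given in the sources used here, nor is whether duplicates were removed.

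These counts, already whole, were tested with edgeR 4.0.16 in R 4.3.3 (TMM, filterByExpr, robust quasi-likelihood fit, no covariate, two-sided, Benjamini-Hochberg adjustment over all tested genes). The standard error is the size of the log2 fold change divided by the square root of F. The fit was tested on simulated data. The genes, gene lists and alternatives were chosen with earlier results of these data known. Genes named with values were those called, Il6, Tnf and Il1b, the 10 of highest FPKM, those meeting the fold criterion alone, and per signalling list the 3 of smallest adjusted p. Some genes counted in these totals are not reported here by name. Others are marked as chosen after their values were seen. Alternatives were median-ratio scaling, scaling without the 20 most abundant genes, no filter, a filter of 40 counts in 3 libraries, DESeq2 1.42.0, limma 3.58.1 on log2 FPKM with a pseudocount of 0.1, 1 or 0.01 and a minimum mean of 0.1 FPKM (and with 0.1 and no minimum), counts divided by 4, the replicate number as a block, each library left out, and, added after seeing the data, WT replicate 1 and S100a16KO+/- replicate 2 left out together. FPKM fold changes are on the log2(FPKM + pseudocount) scale.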

Additional observations from a re-analysis of the deposited data

How the results depend on the processing

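The number of genes called at an adjusted p under 0.05 was 12 to 17 over the 18 alternatives (16 as reported, and 13 to 15 with 1 library left out), and 9 of the 16 genes kept their call in all of them. With DESeq2 17 genes were called. The fold criterion of the study was met by 10 genes as reported, 8 to 13 with 1 library left out, 5 with a filter of 40 counts, 5 with limma on log2(FPKM + 0.1) and 5 on the same values without a filter, 0 with limma on log2(FPKM + 1), where the pseudocount shrinks folds of low genes, and 5 with counts divided by 4, where 59 genes passed the filter in place of 98. Of the signalling lists, 24 genes were called as reported, 18 to 24 with 1 library left out, 13 with limma at each of the pseudocounts 0.1, 1 and 0.01, and 11 without a filter; the cause was not tested. The number of genes above the detection limit in every library was 69, against 82 at a limit of 4 counts, 49 at 40 counts, 66 at a mean of 0.1 FPKM and 69 to 72 with 1 library left out. The sign turned in 4 uncalled genes with 1 library left out: over these fits the log2 fold change of Il17rc was -0.073 to 0.053, of Il15ra -0.025 to 0.16 (both turned without WT replicate 3), of Il1rap -0.079 to 0.014 (without S100a16KO+/- replicate 3) and of Tnf -0.42 to 1.15 (without S100a16KO+/- replicate 2), and Tnf was at -0.68 without WT replicate 1 and S100a16KO+/- replicate 2. Replicate numbers did not pair the samples (correlations of same-numbered deviations -0.0062, -0.0163 and 0.0005). With the replicate number as a block, 16 genes were called, 15 of them shared, 10 met the fold criterion and 19 signalling genes were called. Ccl4 lost its call (adjusted p = 0.0524) and Cx3cr1 gained one (adjusted p = 0.048). Genes near 12 counts, among them Il6, Tnf and Ccl4, rest on few fragments.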

Other observations

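Some genes of the family lay just outside the adjusted threshold and met neither criterion, and were picked here after their values were seen. Tnfsf12, which codes for TWEAK, had 312, 310 and 323 counts in WT and 392, 434 and 404 counts in S100a16KO+/- hepatocytes (log2 fold change 0.40 ± 0.14, adjusted p = 0.0527, edgeR). Il22ra1, the IL-22 receptor chain of epithelial cells, had 159, 151 and 127 counts against 111, 91 and 66 counts (-0.69 ± 0.25, adjusted p = 0.0685), the opposite direction to its partner chain Il10rb. Ackr4, an atypical receptor that clears CCL19 and CCL21, had 70, 51 and 49 counts against 77, 101 and 104 counts (0.74 ± 0.30, adjusted p = 0.0902).

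In the group of IL-1 and IL-18 receptor genes on chromosome 1 (Il1r2, Il1r1, Il1rl2, Il1rl1, Il18r1 and Il18rap) 3 of 6 were tested, and 0 were called by edgeR or DESeq2, with 0 at an unadjusted p under 0.05. Il1a and Il1b, the tested genes of their group on chromosome 2, were both called higher. Of all tested genes 22.8% were called, and 11.6% were called higher.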
